A study of Mus musculus with 3 samples.

Results

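Cycling nuclei of the liver were picked from a single-nucleus RNA sequencing study of 3 libraries, each made from frozen liver. The mice were of strain C57BL/6, aged 8 weeks when the diets began. A nucleus was kept if it held at least 500 unique molecular identifiers (UMIs, each standing for a captured RNA molecule) and at most 5% mitochondrial UMIs. It was called cycling if it held at least 3 UMIs over the 8 genes Top2a, Mki67, Diaph3, Knl1, Ect2, Kif15, Polq and Cenpe, with at least 2 of these genes detected. Cycling nuclei with at least 3 UMIs over Clec4f, Cd5l, Adgre1, Lyz2 and Cd74 were called macrophage, and the others are called other cycling nuclei below. By these rules 176 of 21456 kept nuclei were cycling, of which 85 were macrophage and 91 were other nuclei. The SD library, from mice on standard diet, held 21 cycling nuclei. The MASLD library, from mice fed for 18 weeks on a MASLD diet (MASLD stands for metabolic dysfunction-associated steatotic liver disease) with a sugar solution to drink, held 110. The Aza-TdC library, from mice on the same diet and sugar solution that also received oral 5-Aza-4′-thio-2′-deoxycytidine at 2 mg/kg by daily gavage in weeks 14 to 18, held 45. Aza-TdC is a nucleoside analogue that is incorporated into DNA and depletes the maintenance DNA methyltransferase DNMT1, so it acts in cells that replicate.

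Each group had 1 library, and no source states how many animals it was made from, so no group could be tested against another and no p-value is given. Intervals are 95% intervals that cover counting error only, and none covers the spread between animals. The UMIs of the 8 rule genes chose the members, and every gene contrast of cycling with other nuclei below is therefore a description. The libraries held 7139, 6928 and 7598 barcodes in the order SD, MASLD and Aza-TdC, with 45162618, 43569644 and 51789068 UMIs. The filter left out 0, 202 and 7 barcodes in that order. No cycling nucleus had a barcode that another library also held.

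Few cells divide in a resting adult liver. Kupffer cells, the macrophages that sit in the liver sinusoids, renew by local division, and the liver can also draw macrophages from blood monocytes that lose or gain marker genes as they settle. Dividing cells switch on groups of genes in turn, with replication genes in S phase and chromosome condensation, spindle and cytokinesis genes in G2 and mitosis. Genes of the later group are known to be held off in resting cells by the DREAM complex, which is recruited through a short promoter element called CHR, often near CCAAT boxes bound by NF-Y, whereas E2F sites are typical of replication genes.

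The rule genes belong to the later steps of the cycle. Top2a encodes the topoisomerase that untangles sister chromosomes, and Mki67 the Ki-67 protein that coats mitotic chromosomes. Knl1 and Cenpe encode kinetochore proteins, Kif15 a spindle motor, Ect2 an activator of the cytokinetic furrow, Diaph3 an actin-nucleating formin, and Polq a DNA polymerase used in end joining. The upstream sequences of Top2a, Mki67, Ect2 and Knl1 are shown because they place the rule genes among promoters with and without the CHR and CCAAT letters. They are RefSeq sequences of build GRCm38.p6, 250 bases up to the transcript start, written 5′ to 3′ on the strand of the gene. Capitals mark TTTGAA (CHR), CCAAT and the E2F letters TTTCCCGC, TTTCGCGC, TTTGCCGC and TTTGGCGC, each searched on both strands.
Top2a, chr11:99024190-99024439, minus strand: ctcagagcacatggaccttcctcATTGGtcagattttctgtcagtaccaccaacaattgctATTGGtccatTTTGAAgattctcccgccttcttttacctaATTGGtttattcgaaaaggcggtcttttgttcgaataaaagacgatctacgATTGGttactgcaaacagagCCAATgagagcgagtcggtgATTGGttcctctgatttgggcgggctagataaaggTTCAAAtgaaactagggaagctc
Mki67, chr7:135716380-135716629, minus strand: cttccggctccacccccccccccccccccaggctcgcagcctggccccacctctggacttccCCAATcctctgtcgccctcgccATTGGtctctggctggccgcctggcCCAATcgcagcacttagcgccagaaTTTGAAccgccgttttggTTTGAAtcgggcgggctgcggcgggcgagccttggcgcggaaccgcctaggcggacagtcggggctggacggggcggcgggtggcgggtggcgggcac
Ect2, chr3:27153879-27154128, minus strand: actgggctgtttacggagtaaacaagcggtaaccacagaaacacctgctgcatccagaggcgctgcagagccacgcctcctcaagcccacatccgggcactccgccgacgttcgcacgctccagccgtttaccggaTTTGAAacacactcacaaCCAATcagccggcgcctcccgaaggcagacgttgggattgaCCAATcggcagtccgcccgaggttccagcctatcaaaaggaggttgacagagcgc
Knl1, chr2:119046869-119047118, plus strand: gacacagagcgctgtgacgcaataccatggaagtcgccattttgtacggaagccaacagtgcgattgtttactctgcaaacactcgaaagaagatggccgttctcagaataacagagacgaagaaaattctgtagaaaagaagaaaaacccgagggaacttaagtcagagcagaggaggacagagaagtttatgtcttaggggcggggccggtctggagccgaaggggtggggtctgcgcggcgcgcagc
In Top2a the CHR letters began 179 and 23 bases before the start, in Mki67 116 and 98 bases before it, and in Ect2 114 bases before it. The Knl1 window held none of the motifs. Of the 8 rule genes, all of which were matched by symbol, 5 held the CHR letters, 5 held CCAAT and 1 held E2F letters. Over 27025 genes with a window of the same length, 18.3% held the CHR letters, 37.5% CCAAT and 2.16% the E2F letters. The G2 and mitosis list had 58 of 72 members matched, of which 37.9% held CHR letters, 74.1% CCAAT and 8.62% the E2F letters. The S phase list had 39 of 50 members matched, of which 10.3% held CHR letters, 56.4% CCAAT and 28.2% the E2F letters. The matches describe letters in these windows and do not show binding.

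In single nuclei the rule genes gave from 3 to 70 UMIs. Cycling macrophage nuclei held 8 to 34 rule-gene UMIs with a median of 13 in SD (4 nuclei), 3 to 49 with a median of 11.5 in MASLD (72 nuclei), and 3 to 50 with a median of 5 in Aza-TdC (9 nuclei). Other cycling nuclei held medians of 10, 5.5 and 8.5. The ranges of the libraries overlap in both sets. At the limit, 31 members had exactly 3 rule-gene UMIs, of which MASLD held 19, Aza-TdC 10 and SD 2. Just outside it, 29, 49 and 43 nuclei had 2 rule-gene UMIs, and 6, 3 and 10 nuclei had at least 3 UMIs but in only 1 gene. Well inside it, 110 members had at least 8 rule-gene UMIs. The rule genes stood at 9.31, 12.2 and 10.3 CPM (UMIs scaled to the depth of the set) over the remaining nuclei of SD, MASLD and Aza-TdC, against 2472, 1959 and 1450 CPM over other cycling nuclei and 3908, 3589 and 3719 CPM over cycling macrophage nuclei. The rule divided the nuclei by these same genes, so a gap was fixed in advance and does not show how well the rule separates them.

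**Figure D1:**
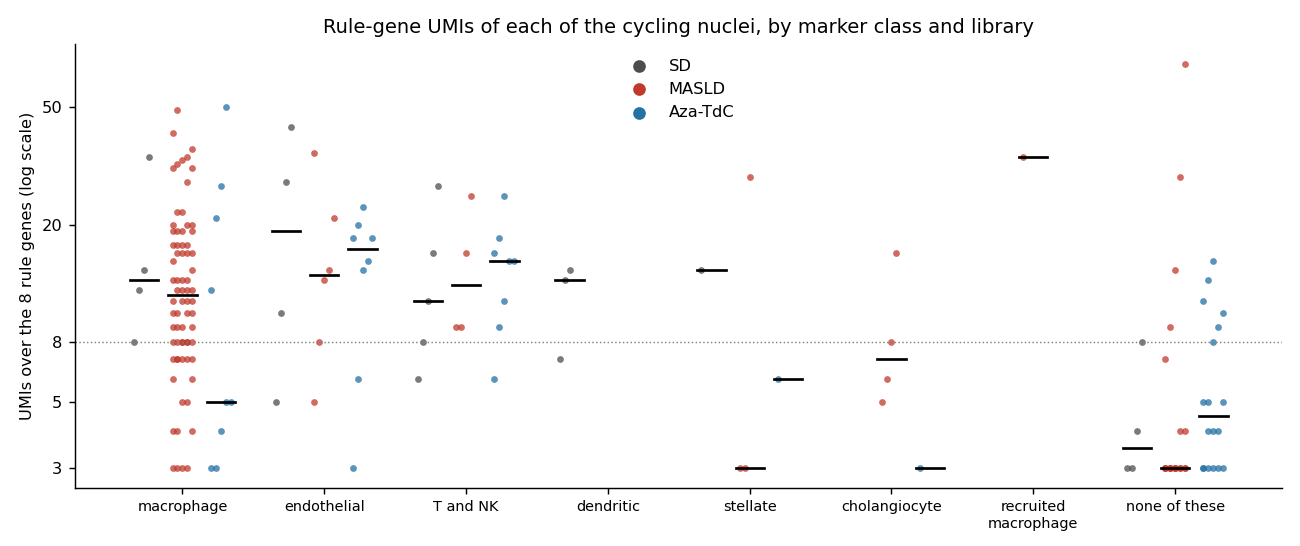
Each point is a cycling nucleus, placed by its marker class and library, with its UMIs over the 8 rule genes on a log axis; black bars are medians and the dotted line stands at 8 UMIs. Most macrophage, endothelial and T and NK nuclei lie at or above the line, while most nuclei without a class lie below it.

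Top2a was detected in 18 of 21 cycling nuclei in SD, 85 of 110 in MASLD and 35 of 45 in Aza-TdC, at 752, 504 and 436 CPM. Diaph3 was detected in 18, 88 and 37 of them, Knl1 in 17, 71 and 30, Kif15 in 12, 74 and 28, and Ect2 in 10, 72 and 24. Knl1, Kif15, Ect2 and Cenpe had 0 UMIs in the 179 non-cycling macrophage nuclei of MASLD, which the rule selected and which held at most 2 rule-gene UMIs each. Mki67 was detected in 13 of 21 cycling nuclei in SD (61.9%), 78 of 110 in MASLD (70.9%) and 16 of 45 in Aza-TdC (35.6%). Its level over cycling nuclei was 273 CPM (183 to 391), 450 CPM (394 to 513) and 151 CPM (109 to 204). In other cycling nuclei Mki67 stood at 82.4 CPM (50.3 to 127) in Aza-TdC against 270 CPM (206 to 348) in MASLD. In cycling macrophage nuclei it stood at 629 CPM (394 to 953) in Aza-TdC and 591 CPM (505 to 688) in MASLD, but 14 of the 22 UMIs in Aza-TdC came from 1 nucleus. Without that nucleus, left out after its value was seen, the Aza-TdC level was 304 CPM (131 to 598). Without its own top nucleus the MASLD level was 569 CPM (484 to 665). Cenpe, which was detected in 9, 53 and 12 cycling nuclei of SD, MASLD and Aza-TdC, had 33.0 CPM (14.2 to 64.9) in other cycling nuclei of Aza-TdC, 131 CPM (87.5 to 188) in MASLD and 292 CPM (191 to 428) in SD. Polq, by contrast, stood at 94.0, 92.8 and 93.6 CPM over all cycling nuclei of SD, MASLD and Aza-TdC.

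Of kept nuclei, 0.294% (0.182 to 0.449) were cycling in the SD library, 1.64% (1.35 to 1.97) in the MASLD library and 0.593% (0.433 to 0.792) in the Aza-TdC library, so the MASLD share was 5.56 times that of SD and 2.76 times that of Aza-TdC. With nuclei thinned to 3000 UMIs the ratio of MASLD to Aza-TdC was 4.30 and that to SD 5.45, and at 1500 UMIs they were 4.10 and 6.04. Nuclei with fewer UMIs were left out. At 3000 UMIs these were 833, 926 and 873 nuclei of SD, MASLD and Aza-TdC, with 6, 38 and 15 cycling nuclei among them. At 1500 UMIs they were 0, 301 and 326, with 0, 6 and 3 cycling nuclei. Cycling macrophage nuclei were 1.07% (0.838 to 1.35) of kept nuclei in MASLD, against 0.056% (0.0153 to 0.143) in SD and 0.119% (0.0542 to 0.225) in Aza-TdC. Other cycling nuclei were 0.238% (0.139 to 0.381), 0.565% (0.400 to 0.775) and 0.474% (0.332 to 0.656) of kept nuclei in the order SD, MASLD and Aza-TdC. The MASLD interval of that share overlaps that of Aza-TdC and lies above that of SD, at a ratio of 2.37. Macrophage nuclei accordingly made up 65.5% (55.8 to 74.3) of cycling nuclei in MASLD, against 19.0% (5.45 to 41.9) in SD and 20% (9.58 to 34.6) in Aza-TdC. The gap between MASLD and SD in other cycling nuclei rests in part on nuclei near the limit of 3 rule-gene UMIs. At least 8 such UMIs were held by 11, 17 and 19 other cycling nuclei, with the libraries ordered as above. A limit of 5 kept 18, 86 and 31 cycling nuclei, of which 4, 65 and 6 were macrophage. No interval for other cycling nuclei was computed at these limits, so their separation from SD is shown only for the limit of 3.

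Macrophage nuclei were about as frequent in Aza-TdC as in MASLD, at 4.4% (3.95 to 4.89) and 3.73% (3.29 to 4.21) of kept nuclei, against 0.350% (0.227 to 0.517) in SD. The cycling share among all macrophage nuclei also differed: 72 of 251 macrophage nuclei were cycling in MASLD (28.7%, 23.2 to 34.7), 9 of 334 in Aza-TdC (2.69%, 1.24 to 5.05) and 4 of 25 in SD (16%, 4.54 to 36.1). The MASLD share was 10.6 times the Aza-TdC share, and these intervals are far apart, while the SD interval spans the MASLD value. Median UMIs were 4429.5, 3341 and 3228 in cycling macrophage nuclei and 2610, 2319 and 2924 in the other macrophage nuclei of SD, MASLD and Aza-TdC. When nuclei were thinned to 1500 UMIs, which left out 0, 52 and 58 macrophage nuclei, the cycling shares of macrophage nuclei were 6.95%, 33.5% and 2.02%. At 3000 UMIs, which left out 15, 143 and 170 macrophage nuclei, they were 40.5%, 47.4% and 2.90%, and the SD value then rests on a mean of 8.65 macrophage nuclei.

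**Figure D2:**
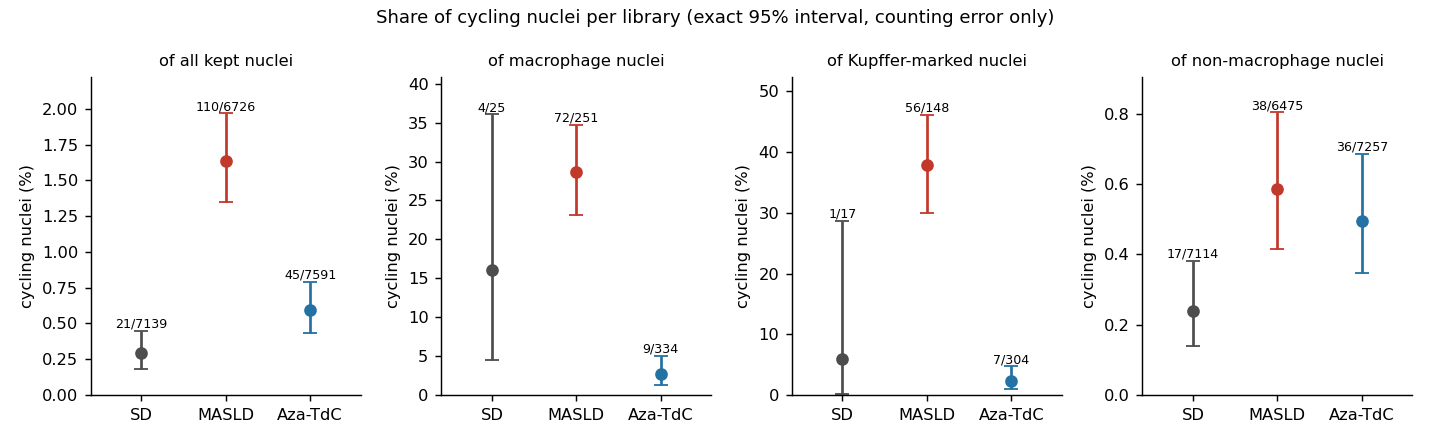
Points show the percentage of cycling nuclei in each library among all kept nuclei, macrophage nuclei, Kupffer-marked nuclei (at least 3 UMIs over Clec4f, Cd5l and Adgre1) and non-macrophage nuclei, with exact 95% intervals; the printed fractions are the counts. The MASLD point stands above Aza-TdC with separate intervals in the panels of kept, macrophage and Kupffer-marked nuclei, and the intervals overlap among non-macrophage nuclei.

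The macrophage label held for most of these nuclei but not for all. Clec4f and Cd5l mark Kupffer cells, whereas Cd74, the invariant chain of antigen presentation, is shared with dendritic cells. With at least 3 UMIs over Clec4f, Cd5l and Adgre1, 56 of 72 cycling macrophage nuclei in MASLD, 7 of 9 in Aza-TdC and 1 of 4 in SD were Kupffer-marked. The 16 MASLD nuclei outside that set held Cd74 at 7447 CPM, against 370 CPM in the Kupffer-marked ones, and Cd5l at 0 UMIs. Flt3, the growth factor receptor of dendritic cells, was detected in 14 of these 16 nuclei and in 0 of the 56 Kupffer-marked nuclei, where the interval reaches up to 17.0 CPM. At least 3 UMIs over at least 2 dendritic cell markers (Flt3, Xcr1, Clec9a, Siglech, Ccr7, Zbtb46) were found in 12 of the 16, and in all 3 SD nuclei outside the Kupffer-marked set. The rule for recruited macrophage markers given below was met by 9 of the same 16 and by 1 of these 3. Dendritic-marked thus does not settle the cell type either. Mitochondrial UMIs had a median of 1.96% in the 16 MASLD nuclei and 0.47% in the Kupffer-marked ones, and the part of this difference in the results was not tested. Of the 21 non-cycling macrophage nuclei of SD, 2 were dendritic-marked and 16 Kupffer-marked. Markers of B cells (Pax5, Ms4a1, Cd79a, Cd79b, Bank1, Ebf1, Ighm) gave 91 UMIs over 7 genes in these 21 nuclei. In the 16 Kupffer-marked ones they gave 38 UMIs over 2 genes. Whether B cells are among the nuclei called macrophage was not tested.

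Within Kupffer-marked nuclei the ratio of MASLD to Aza-TdC was larger. Cycling nuclei made up 56 of 148 in MASLD (37.8%, 30.0 to 46.2), 7 of 304 in Aza-TdC (2.30%, 0.931 to 4.69) and 1 of 17 in SD (5.88%, 0.149 to 28.7), a 16.4-fold ratio of MASLD to Aza-TdC. Among macrophage nuclei outside that set the counts were 3 of 8, 16 of 103 and 2 of 30. The 9 cycling macrophage nuclei of Aza-TdC held 50, 27, 21, 12, 5, 5, 4, 3 and 3 rule-gene UMIs, so 4 of them lay at or above 8, against 55 of 72 in MASLD and 4 of 4 in SD. At least 3 UMIs over at least 2 markers of monocytes and recruited macrophages (Ccr2, Cx3cr1, Trem2, Gpnmb, Spp1, Cd9, Itgax, Lpl, Ly6c2, Chil3, Ms4a7) were found in 6 of these 9 nuclei and in 29 of 325 non-cycling macrophage nuclei of the same library, but in 21 of 72 and 60 of 179 in MASLD. Of the Kupffer-marked cycling nuclei, 4 of 7 in Aza-TdC and 12 of 56 in MASLD also met this rule for recruited macrophage markers. Clec4f was found in 2 of the 9 cycling macrophage nuclei of Aza-TdC and in 54 of 72 in MASLD. Kupffer-marked thus names a count over 3 genes and does not settle the cell type.

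A gene was called higher or lower in cycling nuclei where the log2 ratio of its CPM was at least 1 or at most -1 with an interval that excludes 0, given at least 20 UMIs over both sets. In MASLD, 624 of 7719 measured genes were higher in cycling than in other macrophage nuclei (8.08%) and 801 were lower (10.4%). In Aza-TdC 5.12% of 8382 measured genes were higher and 3.34% lower, with 9 cycling nuclei on 1 side. In SD 6.53% of 796 measured genes were higher and 10.4% lower, with 4 cycling nuclei. Scaling by the median ratio in place of CPM changed the calls from 429 higher and 280 lower to 310 and 379 in Aza-TdC, and from 52 and 83 to 73 and 56 in SD. The genes that stood highest in both MASLD and Aza-TdC by the interval bound nearest 0 included Anln and Cenpp. Anln, which encodes the cytokinesis scaffold anillin, had 317 CPM in cycling and 5.03 CPM in other macrophage nuclei of MASLD (log2 ratio 5.98, 4.38 to 8.28), 372 and 9.08 CPM in Aza-TdC (5.36, 4.08 to 6.66), and 2 UMIs against 1 in SD. Cenpp, a subunit of the inner kinetochore, had 398 and 11.7 CPM in MASLD (5.08, 3.99 to 6.43) and 400.5 and 5.78 CPM in Aza-TdC (6.12, 4.71 to 7.66).

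Genes of chromatin and chromosome structure followed. Atad2, a bromodomain protein of replicating chromatin, had log2 ratios of 3.6 (2.95 to 4.31) in MASLD and, in Aza-TdC, of 4.03 (3.11 to 4.90). Ezh2, the methyltransferase of the Polycomb complex, had 464.5 against 41.9 CPM in MASLD and 458 against 31.4 CPM in Aza-TdC. Smc4, a core subunit of condensin, had 507 against 33.6 CPM and 372 against 30.5 CPM in the same libraries. Tmpo, which encodes lamina-associated proteins, had 633 against 60.4 CPM and 515 against 56.9 CPM. Incenp, Kif23 and Cep128, which act at the inner centromere, the central spindle and the centriole, and the repair genes Brip1 and Zgrf1 were also among the highest, with log2 ratios of 2.77 to 5.15 in MASLD and, in Aza-TdC, of 3.53 to 4.70. Of the genes named here, Cep128 alone was measured in SD with at least 20 UMIs, at 920 CPM in cycling and 66.9 CPM in other macrophage nuclei (3.78, 2.15 to 5.82).

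The genes that stood lowest in both libraries were Magi1, Cps1, A1cf, Dpyd, Tox and Gfra1. Cps1, the urea cycle enzyme of hepatocytes, had 493 CPM in cycling and 1599 CPM in other macrophage nuclei of MASLD (-1.70, -1.96 to -1.44), and 372 and 1689 CPM in Aza-TdC (-2.18, -3.09 to -1.41). Summed over 10 hepatocyte markers, Cps1 included, the level was 7052 CPM in cycling and 12512 CPM in other macrophage nuclei of MASLD, 4892 and 9223 CPM in Aza-TdC, and 5287 and 9011 CPM in SD. Non-cycling macrophage nuclei outside the Kupffer-marked set held 15291 CPM in MASLD (87 nuclei) and 15420 CPM in Aza-TdC (28 nuclei). The remaining nuclei of these libraries held 17430 and 19782 CPM. Of a list of RNA quality genes (mitochondrial, nuclear-retained, cytoplasmic and stress transcripts), 0 of 16 measured members were higher and 1 lower in MASLD, and 5 of 16 higher and 1 lower in Aza-TdC. Over all measured genes 8.08% were higher and 10.4% lower in MASLD, and 5.12% and 3.34% in Aza-TdC. Hepatocyte RNA thus moved with the cycling call, and its part in the lower genes was not tested.

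The cell cycle lists outside the rule stood high in cycling macrophage nuclei. Of the 72 members of the G2 and mitosis list, 51 were measured in MASLD and 51 were higher, with a median log2 ratio of 4.77 against -0.04 over all measured genes, and 15 of them had 0 UMIs in the other macrophage nuclei and entered at the floor of 3 counts. Kif11, the motor that pushes spindle poles apart, had 112 UMIs in cycling and 2 in other macrophage nuclei of MASLD (6.88, 4.99 to 9.94). Prc1, which bundles the central spindle, had 61 and 1 (7.0, 4.47 to 12.33). In Aza-TdC 8 of 11 measured members were higher and the remaining 3, Arhgap11a, Gas2l3 and Ncapg2, had intervals that include 0. The S phase list had 17 of 20 measured members higher in MASLD (median 2.34) and 7 of 12 in Aza-TdC. Among all measured genes 8.08% were higher in MASLD and 5.12% in Aza-TdC. Pola1, the catalytic subunit of the replicative primase complex, had 616 against 88.9 CPM in MASLD (2.79, 2.34 to 3.26), 1001 against 150 CPM in Aza-TdC (2.74, 2.17 to 3.26), and 11 against 8 UMIs in SD.

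The kinetochore list had 14 of 16 measured members higher in MASLD and 2 of 4 in Aza-TdC. Hjurp, the chaperone of the centromeric histone CENP-A, was among those not called, at 366 CPM in cycling and 243 CPM in other macrophage nuclei of MASLD (0.59, 0.21 to 0.96), whereas Cenpa itself had 208 and 10.1 CPM (4.37, 3.16 to 5.87). The list of recombination and fork repair genes had 17 of 19 higher in MASLD and 5 of 9 in Aza-TdC. By comparison, 8.08% of all measured genes were higher in MASLD and 5.12% in Aza-TdC, where 9 cycling nuclei stand behind the counts. Neil3, a glycosylase that unhooks crosslinked DNA, had 84 UMIs in cycling and 0 in other macrophage nuclei of MASLD, at least 58.7-fold higher against the floor of 3 counts.

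Genes of cell cycle entry and arrest did not follow as a group. In the G1 list 2 of 14 measured members were higher in MASLD, Rbl1 and Cdkn2c. Over all measured genes 8.08% were higher in MASLD and 5.12% in Aza-TdC. Rbl1, which encodes the pocket protein p107, had 201 against 21.8 CPM (3.20, 2.31 to 4.19), and in Aza-TdC it was the member called of 12, at 200 against 14.0 CPM (3.84, 2.32 to 5.18). Cdkn2c, an inhibitor of CDK4 and CDK6, had 84.5 CPM in cycling nuclei and 0 UMIs in the others. Ccnd3, a cyclin of G1, stood at 405 and 418 CPM in MASLD. None of 12 measured p53 targets was higher in MASLD, and 2, Gdf15 and Trp53inp1, were lower, against 10.4% lower over all measured genes. Cdkn1a, the p53-induced CDK inhibitor p21, had 24.6 CPM in cycling and 21.8 CPM in other macrophage nuclei of MASLD (0.18, -1.39 to 1.61), and 85.8 against 139 CPM in Aza-TdC (-0.69, -2.98 to 0.88).

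**Figure D3:**
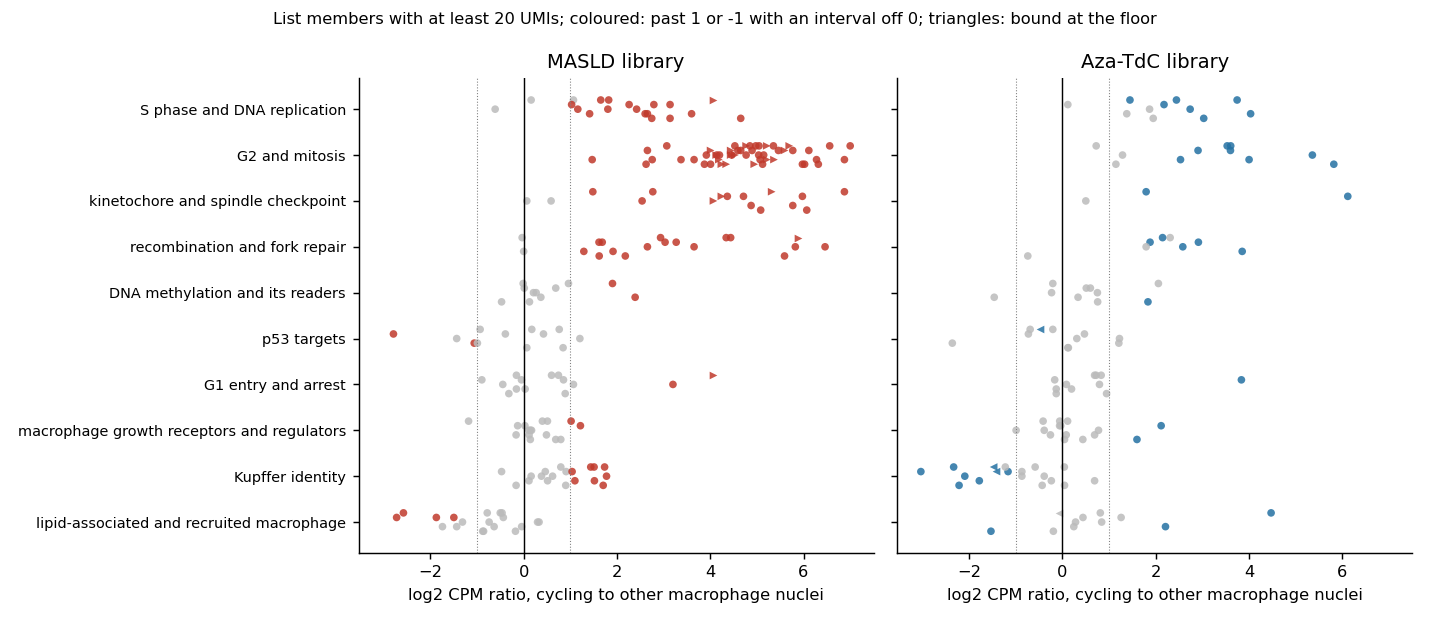
Each point is a list member with at least 20 UMIs, placed by the log2 ratio of its CPM in cycling to other macrophage nuclei of MASLD and of Aza-TdC; coloured points were called, grey points were not, and triangles are bounds at the floor of 3 counts, with bounds that crossed 0 left out. The G2 and mitosis members of MASLD lie to the right of 1, and the called Kupffer identity members lie to the right in MASLD and to the left in Aza-TdC.

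In MASLD 8 of 19 measured members of the Kupffer identity list were higher in cycling than in other macrophage nuclei and 0 were lower (median 0.90), and in Aza-TdC 0 were higher and 8 were lower (median -0.87, against 0.47 over all measured genes). In that Aza-TdC contrast 3 of the 19 members and 2089 of 8382 measured genes had 0 UMIs in cycling nuclei and entered at the floor of 3 counts. The floor is an upper bound for them, so 0.47 may stand too high as a baseline. Median-ratio scaling, over genes with counts on both sides, shifted the Aza-TdC ratios by -0.18. In SD 6 of 8 measured members were lower, with 3 of the 4 cycling nuclei marked as dendritic. All measured genes gave 8.08% higher and 10.4% lower in MASLD, 5.12% and 3.34% in Aza-TdC, and 6.53% and 10.4% in SD. Part of these genes define the macrophage and Kupffer-marked sets, and the difference between the libraries was not tested. Clec4f, a lectin of Kupffer cells, had 1960 CPM in cycling and 688 CPM in other macrophage nuclei of MASLD (1.51, 1.32 to 1.70), but 572 and 2880 CPM in Aza-TdC (-2.33, -3.04 to -1.70) and 1264 and 2591 CPM in SD. In Aza-TdC it was found in 2 of 9 cycling and 280 of 325 other macrophage nuclei, and 17 of the 20 UMIs came from 1 nucleus. Vsig4, a complement receptor, had 707 and 206 CPM in MASLD (1.78, 1.45 to 2.11) and 172 and 732 CPM in Aza-TdC (-2.09, -3.54 to -0.96). Timd4, a receptor for dying cells that marks resident Kupffer cells, had 250 and 87.2 CPM in MASLD (1.52, 0.98 to 2.06) and 143 and 492 CPM in Aza-TdC (-1.78, -3.41 to -0.55). Slc40a1, the iron exporter ferroportin, had 1756 and 648 CPM in MASLD (1.44, 1.24 to 1.63) and 1373 and 2060 CPM in Aza-TdC (-0.59, -1.03 to -0.17), and C6, a complement component, was called higher in MASLD and lower in Aza-TdC.

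Within Kupffer-marked nuclei, a comparison chosen after the data were seen, 6.94% of 5478 measured genes were higher and 7.39% lower in cycling nuclei of MASLD, and 4.48% of 7944 were higher and 2.32% lower in Aza-TdC. Only Folr2 and Vsig4 of the 19 measured Kupffer members were then higher in MASLD, with Vsig4 at 920 and 419 CPM (1.13, 0.80 to 1.47). Kupffer-marked nuclei made up 77.8% of cycling and 51.4% of other macrophage nuclei in MASLD, and 77.8% and 91.4% in Aza-TdC, so the macrophage comparison sets unlike mixtures side by side. In Aza-TdC 7 of 19 were still lower, among them Clec4f at 760 and 3190 CPM (-2.07, -2.78 to -1.44), with 7 cycling nuclei behind the value. Of these 7 nuclei 4 also met the rule for recruited macrophage markers, and 17 Clec4f UMIs came from 1 nucleus. Among the G2 and mitosis genes 43 of 44 measured members were higher in Kupffer-marked cycling nuclei of MASLD, with a median of 4.01.

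Of the list of lipid-associated and recruited macrophage genes, 0 of 19 measured members in MASLD were higher in cycling macrophage nuclei and 4 were lower (median -0.78). Over all measured genes 8.08% were higher and 10.4% lower. The 4 lower members are given here. Mmp12, a macrophage elastase, had 42.2 and 278 CPM (-2.72, -3.70 to -1.88), and Gpnmb, a membrane glycoprotein of lipid-laden macrophages, 120 and 337 CPM (-1.49, -2.06 to -0.97). Fabp4 and Fabp5, which encode fatty acid binding proteins, were the others. Lyz2, the lysozyme gene used in the macrophage rule, stood at 215 CPM in cycling and 918 CPM in other macrophage nuclei of MASLD. In Aza-TdC Gpnmb stood at 458 CPM in cycling and 20.6 CPM in other macrophage nuclei (4.47, 3.47 to 5.43), and Cxcl16 was higher and Axl lower, with the other 10 of 13 measured members not called (median 0.81, against 0.47 over all measured genes). Both medians hold genes with 0 UMIs in cycling nuclei at the floor, 3 of the 13 members and 2089 of 8382 genes. Apoe, the lipoprotein ligand, was not called in either library, at 3762 and 5181 CPM in MASLD and 2861 and 2355 CPM in Aza-TdC. Lpl, Plin2 and Ctsd were likewise not called in MASLD and Aza-TdC.

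Growth receptors and regulators differed little by the call rule. In MASLD 2 of 16 measured members were higher, Irf8 and Runx1, and in Aza-TdC 2 of 16, Runx1 and Tgfbr1. The shares over all measured genes were 8.08% and 5.12%. Csf1r, the receptor through which CSF1 and IL-34 sustain macrophages, had 366 CPM in cycling and 277 CPM in other macrophage nuclei of MASLD (0.40, 0.03 to 0.77) and 286 and 381 CPM in Aza-TdC (-0.41, -1.48 to 0.48). Runx1, a transcription factor of blood cell development, had 690 and 341 CPM in MASLD (1.02, 0.73 to 1.31), 1373 and 454 CPM in Aza-TdC (1.60, 1.14 to 2.02), and 1782 and 802 CPM in SD (1.15, 0.45 to 1.83). Within Kupffer-marked nuclei of MASLD 0 of 15 measured members were called, against 6.94% higher and 7.39% lower over all measured genes.

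Set against each other, cycling macrophage nuclei of Aza-TdC and MASLD differed by the call rule in 4.38% of 3951 measured genes that were higher and 4.28% that were lower in Aza-TdC. Of the cycle genes, 0 of 54 measured G2 and mitosis members were called, 1 of 15 kinetochore members, Ndc80, was lower, and 1 of 16 S phase members, Prim2, was higher, at 486 against 158 CPM (1.62, 0.72 to 2.45). Some of the highest genes rest on few nuclei. For Adgrl3, 24 of the 35 UMIs in Aza-TdC came from 1 nucleus. Aoah, a lipase that inactivates endotoxin, had 1488 against 324 CPM (2.20, 1.68 to 2.71) with UMIs in 7 of 9 nuclei, and Fgr, a Src-family kinase of myeloid cells, 544 against 84.5 CPM (2.69, 1.74 to 3.62), also in 7 of 9. Plac8, a gene of monocytes, had 343 against 38.7 CPM (3.15, 1.84 to 4.47), with UMIs in 5 of 9 nuclei and in 8 of 72 in MASLD. Gpr141, Ppp1r13b and Arhgap24 were also among the highest.

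Of the lowest genes, Cst3, which encodes cystatin C and is strong in dendritic cells, had 143 CPM in Aza-TdC and 1594 CPM in MASLD (-3.48, -5.11 to -2.25), and H2-Aa, a chain of MHC class II, 200 and 1006 CPM (-2.33, -3.66 to -1.27). Both are genes of antigen-presenting cells, and dendritic markers were found in 12 of 72 nuclei in MASLD and 0 of 9 in Aza-TdC (interval up to 33.6%). Cst3 was found in 50 and H2-Aa in 41 of the 72 MASLD nuclei. The part of dendritic nuclei in these ratios was not tested. Cd36, a fatty acid transporter, had 57.2 and 507 CPM (-3.15, -6.21 to -1.27), and its level in other macrophage nuclei was 161 CPM in Aza-TdC and 461 CPM in MASLD. Fau and Mctp1 had 0 UMIs in Aza-TdC and 89 and 76 UMIs in MASLD. The hepatocyte enzyme gene Uox and G0s2, an inhibitor of lipolysis, had 1 UMI each in Aza-TdC and 103 and 102 UMIs in MASLD. Of the RNA quality list 7 of 15 measured members were lower in Aza-TdC, with median mitochondrial UMIs of 0.39% against 0.54%, and the part of this in the other genes was not tested.

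Set against other cycling nuclei of the same library, cycling macrophage nuclei were higher in 17.5% and lower in 17.5% of 5721 measured genes in MASLD, higher in 12.6% and lower in 18.4% in Aza-TdC, and higher in 10.6% and lower in 19.6% in SD. The rule genes chose both sets, and 25 of the 31 members at exactly 3 rule-gene UMIs were other cycling nuclei. Of the G2 and mitosis list 22 of 61 measured members were higher and 0 lower in MASLD, and 10 of 26 higher and 0 lower in Aza-TdC. The S phase list had 3 of 22 and 2 of 12 higher in these libraries.

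The other cycling nuclei were of several kinds. A class was given where at least 3 UMIs over at least 2 of its markers were found, the class with most UMIs being taken, with hepatocyte and erythroid markers left aside because their RNA was present in nuclei of every class. In SD 5 of the 17 were T and NK, 4 endothelial, 3 dendritic, 1 stellate and 4 without a class. In MASLD 6 of the 38 were endothelial, 4 T and NK, 4 cholangiocyte, 3 stellate, 1 of recruited macrophage type and 20 without a class. In Aza-TdC 8 of the 36 were endothelial, 8 T and NK, 1 stellate, 1 cholangiocyte and 18 without a class.

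**Figure D4:**
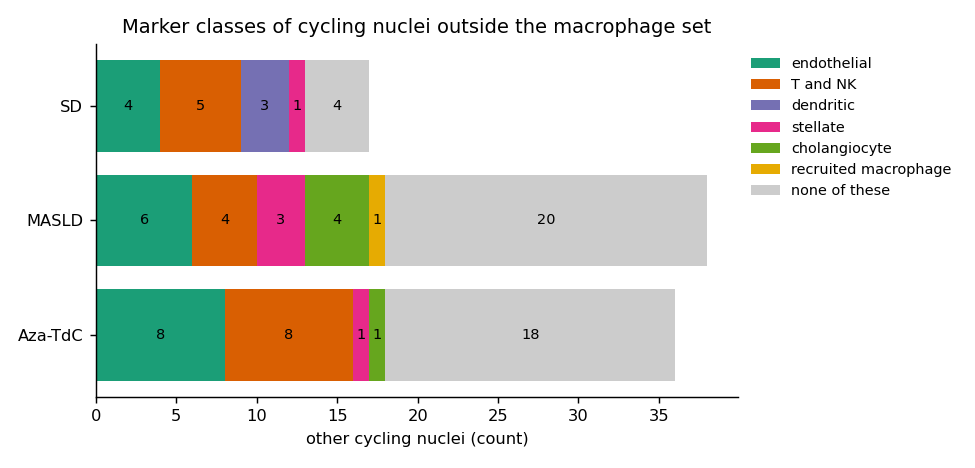
Bars give the number of other cycling nuclei in each library, divided by marker class. Endothelial and T and NK nuclei are present in all 3 bars, and nuclei without a class make up 4, 20 and 18 nuclei of SD, MASLD and Aza-TdC.

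The cycling share of T and NK nuclei lay above that of endothelial and stellate nuclei in each library, with overlapping intervals for T and NK and endothelial nuclei in MASLD. Of nuclei with the T and NK class, 8 of 23 were cycling in Aza-TdC (34.8%, 16.4 to 57.3), 5 of 23 in SD (21.7%, 7.46 to 43.7) and 4 of 26 in MASLD (15.4%, 4.36 to 34.9). Of endothelial nuclei 2.90% (0.795 to 7.26), 2.78% (1.03 to 5.95) and 3.76% (1.64 to 7.27) were cycling, and of stellate nuclei 0.518% (0.0131 to 2.85), 1.21% (0.251 to 3.51) and 0.538% (0.0136 to 2.96). The intervals of the libraries overlap in each of these classes. T and NK nuclei held 6, 8, 11, 16 and 27 rule-gene UMIs in SD, 9, 9, 16 and 25 in MASLD, and 6 to 25 with a median of 15 in Aza-TdC. Endothelial nuclei held 5, 10, 28 and 43 in SD, 5 to 35 with a median of 13.5 in MASLD, and 3 to 23 with a median of 16.5 in Aza-TdC. The 4 cholangiocyte nuclei of MASLD held 5, 6, 8 and 16, and the cholangiocyte nucleus of Aza-TdC held 3. The 3 stellate nuclei of MASLD held 3, 3 and 29.

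The nuclei without a class were mostly near the limit. Exactly 3 rule-gene UMIs were held by 2 of 4 in SD, 13 of 20 in MASLD and 6 of 18 in Aza-TdC, with median total UMIs of 11209.5, 6293.5 and 9604. Their hepatocyte markers stood at 20137, 15258 and 17395 CPM, against 19377, 17499 and 19916 CPM in the non-cycling nuclei without a class. At least 8 rule-gene UMIs were held by 1, 4 and 6 of them. The nucleus with the most rule-gene UMIs of all, 70 over 7 of the genes, was a MASLD nucleus without a class, which held 209 G2 and mitosis UMIs, 12 S phase UMIs and hepatocyte markers at 4381 CPM. The 6 nuclei of Aza-TdC with at least 8 held hepatocyte markers at 7337 to 18464 CPM.

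Against the remaining nuclei, 7.89% of measured genes were higher and 1.03% lower in other cycling nuclei of SD, 9.27% and 1.52% in MASLD, and 8.04% and 0.885% in Aza-TdC. Median-ratio scaling changed the calls from 1161 higher and 152 lower to 938 and 465 in SD, from 1407 and 231 to 1192 and 437 in MASLD, and from 1236 and 136 to 1054 and 276 in Aza-TdC. Genes of such a contrast can also mark the classes, since the remaining nuclei are mostly without a class. Of the cycling ones 4 of 17 in SD, 20 of 38 in MASLD and 18 of 36 in Aza-TdC were without a class. The G2 and mitosis list had 45 of 49 measured members higher in SD, 56 of 58 in MASLD and 50 of 54 in Aza-TdC. The RNA quality list had 2 of 17, 9 of 17 and 1 of 18 measured members higher in the same order (median 1.03 in MASLD), and with at most 1% mitochondrial UMIs the genes called higher in MASLD went from 1407 to 1030, of which 895 were shared; its part in the higher genes was not tested. The S phase list had 28 of 45, 30 of 46 and 37 of 47, and the recombination and fork repair list 16 of 28, 17 of 30 and 27 of 32. Neil3 led the named genes, with 38 UMIs in cycling against 3 in remaining nuclei of MASLD (11.23, 9.57 to 13.57) and 27 against 5 in Aza-TdC (10.13, 8.73 to 11.86). Tpx2, an activator of Aurora A at the spindle, had 191 against 0.24 CPM in SD, 203 against 0.43 CPM in MASLD and 124 against 0.32 CPM in Aza-TdC. Lockd, a noncoding RNA next to the CDK inhibitor gene Cdkn1b, had 270 against 0.49 CPM in SD (9.11, 8.21 to 10.01), 243 against 1.00 CPM in MASLD (7.93, 7.32 to 8.55) and 152 against 0.52 CPM in Aza-TdC (8.20, 7.44 to 8.99). Ikzf1, a transcription factor of lymphocytes, stood at 270, 158 and 210 CPM against 1.38, 1.28 and 1.53 CPM. Among the lower genes, Glul, the glutamine synthetase of hepatocytes around the central vein, had 27 against 221 CPM in MASLD (-3.03, -4.48 to -1.91) and 33.0 against 127 CPM in Aza-TdC (-1.94, -3.16 to -0.97), but 202 against 114 CPM in SD, where it was not called. The rest of the 12 highest were Depdc1a, Kif23, Prc1, Racgap1, Cenpf, Ncapg, Ttk and Parpbp, and the rest of the 6 lowest Slc1a2, Pnpla3, Col27a1, Errfi1 and Ctcflos.

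Other cycling nuclei of Aza-TdC and MASLD differed in 3.54% of 5091 measured genes that were higher and 5.77% that were lower in Aza-TdC. Of 48 measured G2 and mitosis members 7 were lower, namely Anln, Aspm, Cdca2, Cenpf, Hmmr, Kif2c and Kifc1, and 0 were higher (list median -0.40). The RNA quality list had 10 of 16 measured members lower in the same contrast (median -1.42), and its part in the lower cycle genes was not tested. Cenpf, a kinetochore protein of G2 cells, had 98.9 against 230 CPM (-1.22, -1.98 to -0.49), and Hmmr, a spindle-associated hyaluronan receptor, 45.3 against 171 CPM (-1.92, -3.03 to -0.92). Of 18 measured S phase members only Tyms, the thymidylate synthase, was called, at 65.9 against 18.0 CPM (1.87, 0.24 to 3.91).

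Over cycling macrophage nuclei the S phase list gave 35.1% (30.7 to 39.6) of the UMIs of both lists in Aza-TdC, 25.1% (23.7 to 26.5) in MASLD and 25.7% (20.3 to 31.7) in SD, and 77 of 85 nuclei held more G2 and mitosis than S phase UMIs. Without the nucleus that held most G2 and mitosis UMIs, left out after the values were seen, the Aza-TdC share was 31.7% (26.6 to 37.2) and the MASLD share 24.8% (23.4 to 26.2). Over other cycling nuclei it gave 29.2% (26.1 to 32.5), 28.7% (26.6 to 30.8) and 41.2% (38.9 to 43.6). In that set the endothelial nuclei gave 14.2%, 7.48% and 18.4%, and the T and NK nuclei 33.1%, 18.6% and 21.4%. The nuclei without a class gave 82.6% (74.1 to 89.2), 46.5% (43.0 to 50.1) and 64.1% (60.4 to 67.6), and 15 of 18 such nuclei in Aza-TdC held more S phase UMIs. In MASLD 1 nucleus held 209 of their 410 G2 and mitosis UMIs, and without it, again after its value was seen, the share was 63.2% (59.0 to 67.2). The same step in Aza-TdC gave 68.0% (64.3 to 71.6). Non-cycling nuclei of the same libraries gave 75.2%, 71.8% and 72.6%. A UMI in at least 1 of the 153 cycle genes outside the rule was found in all 176 members, but also in 98.7%, 98.1% and 97.9% of non-cycling nuclei.

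**Figure D5:**
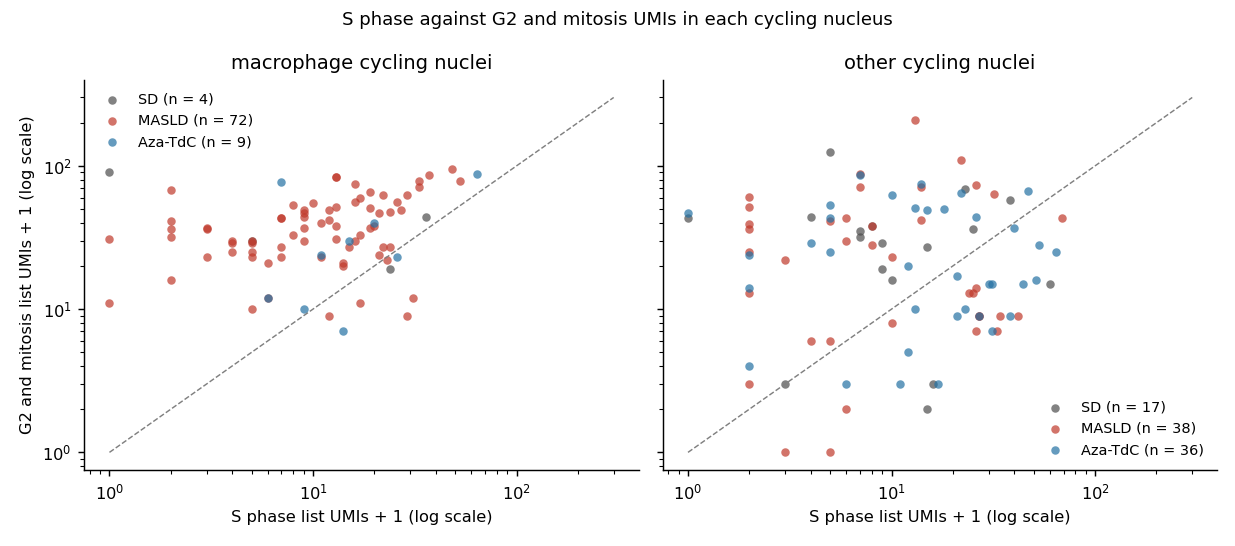
Each point is a cycling nucleus, with UMIs of the S phase list plus 1 on the horizontal and of the G2 and mitosis list plus 1 on the vertical log axis, separately for macrophage and other nuclei; the dashed line marks equal values. Macrophage nuclei lie above the line in 77 of 85 cases, and other nuclei in 55 of 91.

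Dnmt1, the maintenance methyltransferase that Aza-TdC depletes as a protein, was detected at low counts. It had 9 UMIs in 8 of 21 cycling nuclei of SD (84.6 CPM, 38.7 to 161), 23 UMIs in 21 of 110 in MASLD (45.4 CPM, 28.8 to 68.2) and 14 UMIs in 10 of 45 in Aza-TdC (50.4 CPM, 27.6 to 84.6). The non-cycling nuclei held 7.79, 9.04 and 10.2 CPM. The intervals of the 3 libraries overlap, and Dnmt1 RNA in Aza-TdC was not detectably different from MASLD at these counts. Uhrf1, the partner that brings DNMT1 to newly replicated DNA, had 28.2 CPM (5.81 to 82.4), 31.6 CPM (18.1 to 51.3) and 46.8 CPM (24.9 to 80.1) in cycling nuclei and 0.11, 0.30 and 0.39 CPM in non-cycling ones. In non-cycling macrophage nuclei Uhrf1 had 0 UMIs in all 3 libraries. The de novo enzyme gene Dnmt3a was not called, at 355 CPM in cycling and 307 CPM in other macrophage nuclei of MASLD (0.21, -0.15 to 0.57) and 543.5 against 639 CPM in Aza-TdC (-0.23, -0.97 to 0.42), while Dnmt3b had 4 UMIs in the former and 0 in the latter set of MASLD. Of the list of DNA methylation enzymes and readers 2 of 11 measured members, Apobec3 and Mbd4, were higher in cycling macrophage nuclei of MASLD and 1 of 10 in Aza-TdC, and 0 were lower. Over all measured genes 8.08% were higher in MASLD and 5.12% in Aza-TdC, so these list counts are few genes. Apobec3, a cytidine deaminase gene, was called higher in cycling macrophage nuclei of all 3 libraries, at 690 against 301 CPM in SD (1.20, 0.01 to 2.33), 264 against 70.5 CPM in MASLD (1.91, 1.34 to 2.49) and 429 against 120.5 CPM in Aza-TdC (1.83, 0.96 to 2.6). The SD call sets unlike mixtures side by side, since 3 of the 4 cycling nuclei were dendritic-marked and 16 of the 21 others Kupffer-marked. The part of this mixture in the Apobec3 ratios was not tested.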

How the data were processed

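Libraries were made with the 10x Genomics 3' v3.1 kit from nuclei of 120 mg of frozen liver sorted by FACS, per the labels' protocols. The files hold raw UMI counts of each gene in each nucleus, as the authors deposited them. Per the file headers, Cell Ranger 6.1.2 wrote them. The submitters' processing notes name Seurat 4.4.0, mm10 and GRCm38 but no step they served. Whether introns were counted, or free RNA and doublets removed, no label or header says. The libraries held 43569644 to 51789068 UMIs over 32285 features. The cycling and macrophage rules, the 12 gene lists and the rule for named genes were chosen with earlier results of these data known. The rule for named genes took the 8 rule genes, the 12 highest and 6 lowest genes of each contrast of cycling with other nuclei by the interval bound nearest 0 (the less extreme of MASLD and Aza-TdC, at least 20 UMIs over both sets), the 8 highest and 8 lowest of Aza-TdC against MASLD, the 4 members of each list with most UMIs, and 7 fixed genes. Other named list members, and Flt3 and Lyz2, were chosen after their values were seen. Some genes that the rule took are not reported here.

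For each set of nuclei the UMIs of a gene were added up and scaled to CPM. Shares have exact Clopper-Pearson intervals, levels exact Poisson intervals, and log2 ratios exact conditional binomial intervals, at 95%. A ratio to 0 UMIs was bounded by a floor of 3 counts per set. The ratio step was tested on simulated data. No nuclei were clustered and no doublet caller was run. Nuclei above the 99th percentile of UMIs were left out in an alternative. With hepatocyte and erythroid markers in the choice of class, which was the rule set at the outset, hepatocyte would have been the class of 11 of 17, 26 of 38 and 27 of 36 other cycling nuclei in SD, MASLD and Aza-TdC. Promoter letters were searched in RefSeq windows of GRCm38.p6. The software was Python 3.11.15 with scipy 1.17.1, numpy 2.4.6, matplotlib 3.10.9 and pandas 2.3.3.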

Additional observations from a re-analysis of the deposited data

How the results depend on the processing

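Of 182 recomputed values 152 stayed within the interval of the reported value, or within 1.5 times for a count of genes, 30 moved and 0 reversed. Shares, levels and counts have no sign, so only the list medians among these values could have reversed. Thinning to 3000 UMIs gave a cycling share of kept nuclei of 0.178%, 0.972% and 0.226% in SD, MASLD and Aza-TdC and of macrophage nuclei of 40.5% in SD and 47.4% in MASLD, and thinning to 1500, added after seeing the data, gave 1.19% of kept nuclei in MASLD and 0.291% in Aza-TdC; MASLD stayed above both other libraries in each. A limit of 5 rule-gene UMIs gave 1.28% in MASLD and 0.408% in Aza-TdC, and leaving out Diaph3, Ect2 and Polq 1.28% and 0.422%; macrophages were then 75.6% of MASLD cycling nuclei under both. At most 1% mitochondrial UMIs gave 1.33% of kept and 37.4% of macrophage nuclei in MASLD. Clec4f, Cd5l and Adgre1 alone gave 37.8% of macrophage nuclei and 50.9% of cycling nuclei in MASLD and 4.76% of cycling nuclei in SD, as did 2 macrophage genes in SD. Asking for a cycle gene outside the rule removed 0 members.

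Genes called in cycling macrophage nuclei of SD went from 135 to 42 with a minimum of 50 UMIs, 372 with none and 23 against nuclei of like depth. In MASLD they went from 1425 to 791 with 50 UMIs, 761 at like depth, 813 with 5 macrophage UMIs and 785 with Kupffer-marked nuclei (added after seeing the data), and in Aza-TdC from 709 to 425 at like depth. The G2 and mitosis median in MASLD went from 4.77 to 4.00 at like depth. Aza-TdC against MASLD went from 342 genes to 190 with 50 UMIs and 557 with none; the cause was not tested beyond the number of genes measured. Median-ratio scaling shifted all ratios by 0.19 and -0.18 in macrophage nuclei of SD and Aza-TdC and by -0.28, -0.19 and -0.17 in other nuclei of SD, MASLD and Aza-TdC. At like depth 1 gene of cycling macrophage nuclei in MASLD was called in the opposite direction. No paired analysis was possible because each group had 1 library. Counts limit the results of SD and Aza-TdC macrophage nuclei, with 4 and 9 cycling nuclei.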
